A study of Homo sapiens with 6 samples.

Results

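To determine how the genes of the mitochondrial respiratory chain respond to silencing of MUC1 in neuroendocrine prostate cancer cells, the nuclear genes of complexes I to IV were examined by RNA-seq. Genes were chosen by symbol, as NDUFA, NDUFB, NDUFC, NDUFS and NDUFV genes, NDUFAB1, SDHA to SDHD, CYC1 and the UQCR and COX4 to COX8 families. The pattern matched 75 of the 28008 symbols in the count table. Of these, 5 were dropped, namely the antisense RNAs NDUFA6-AS1, NDUFB2-AS1 and NDUFV2-AS1, the pseudogene UQCRBP1 and the readthrough transcript NDUFC2-KCTD14, which had 0 counts in every library. Of the remaining 70 genes, 37 belonged to complex I (7 core and 30 accessory subunits), 4 to complex II, 10 to complex III and 11 to complex IV. The other 8 were isoforms or paralogs of complex IV subunits, some of them used in particular tissues or conditions. NDUFA4, named for complex I, was counted with complex IV, where it is known to reside.

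The cells were NCI-H660 (H660), an androgen receptor-negative line of neuroendocrine prostate cancer (NEPC). All libraries came from H660 cells transduced with a puromycin-selected, tetracycline-inducible vector carrying 1 short hairpin RNA against MUC1, and the labels give no other genetic change. The DOX-negative group (n = 3) received 0.1% DMSO and the DOX-positive group (n = 3) received doxycycline (DOX) at 500 ng/ml, which switches the hairpin on, with an exposure of 7 days per the study's description of these RNA-seq cells. No DOX-treated cells with a control hairpin were analysed here, so that effects of DOX and of MUC1 silencing cannot be told apart. The 3 libraries of a group are labelled as triplicate cultures of the same line, and p values therefore describe the spread between cultures.

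The respiratory chain sits in the inner mitochondrial membrane and passes electrons from NADH (complex I) and succinate (complex II) through coenzyme Q, complex III and cytochrome c to oxygen at complex IV. Complexes I, III and IV pump protons, and ATP synthase (complex V) uses the resulting gradient. Complex II, which does not pump protons, is encoded entirely in the nucleus, whereas the 3 proton pumps combine nuclear subunits with subunits encoded by mitochondrial DNA. In cancer cells the chain competes with glycolysis for the fuel that makes ATP, and complexes I and III are known sources of reactive oxygen species. DOX belongs to the tetracyclines, which are known to inhibit mitochondrial ribosomes.

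The targeted gene was lower in each DOX-positive library. MUC1 lay between 79.6 and 90.2 CPM (counts relative to library size, scaled with TMM factors) without DOX and between 29.9 and 37.2 CPM with DOX, and fell by 1.32 on the log2 scale by edgeR (SE 0.096, adjusted p = 0.00017). Depth was 47620696 to 63494535 counts in DOX-negative and 56893368 to 74061121 counts in DOX-positive libraries, ranges that overlap (exact two-sided permutation p = 0.30, in a design that cannot go below 0.10 and so cannot show a difference at 0.05). Of 17026 genes tested, 829 were called at an adjusted p under 0.05. DOX-positive 2 stood apart from the other libraries, since the deviation of a gene's log2 level from its 6-library mean rose with GC content there (Spearman rho 0.68 over 15830 genes), against rho between -0.31 and 0.12 in the others. All 10 neuroendocrine markers examined were detected, with a summed level of 1811 to 2032 CPM in DOX-negative and 1578 to 1842 CPM in DOX-positive libraries, and 4 had positive and 6 negative log2 fold changes. NCAM1 (-0.50) and INSM1 (-0.45) were called lower, though these calls were lost in 5 and 9 of 22 other fits, and CHGB, whose groups did not overlap, was 0.29 higher (adjusted p = 0.17). The 7 luminal markers summed to no more than 4.79 CPM and KLK3 was at 0, the 8 fibroblast markers lay between 23.4 and 30.6 CPM with COL3A1 and THY1 at 0, and the 6 leukocyte markers lay between 2.49 and 3.89 CPM with CD3E at 0. COL1A1 (0.60), LUM (1.06) and CD68 (0.78) were called higher with DOX, calls lost in 3, 6 and 4 of 20 other fits, while COL1A2, whose groups did not overlap, was at -0.71 (adjusted p = 0.20). The part of other cell types in the results was not tested.

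Most respiratory chain genes were abundant in H660 cells. Levels of different genes were compared as TPM (counts per gene length), rescaled to the usual TPM total over protein-coding genes, since 6 structured RNAs such as RN7SK held between 73.7% and 81.6% of the deposited TPM of a library. Together the genes made up 2.16 ± 0.063% of protein-coding TPM in DOX-negative and 2.15 ± 0.078% in DOX-positive libraries (SD, n = 3). Of the 62 genes outside the isoform group, 33 ranked among the 1000 highest of 18821 protein-coding genes and 3 among the 100 highest. These were COX6B1, NDUFB9 and COX7C, with COX6B1, a complex IV subunit facing the intermembrane space, at rank 55 and a rescaled TPM of 2155 ± 104 (SD over 6 libraries).

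Levels were uneven within complexes. Among complex I core subunits, which carry the flavin and iron-sulfur clusters, the highest (NDUFV2, 305.7 rescaled TPM) exceeded the lowest (NDUFS1, 94.6) by 3.23-fold. Complex II was similarly narrow, with SDHB at 168.1 and SDHC at 67.3. Accessory subunits of complex I, which surround the core and are needed for its assembly or stability, spanned 265-fold, from NDUFB9 (1712) to NDUFC2 (6.45). NDUFC2 overlaps THRSP and the readthrough transcript NDUFC2-KCTD14, which had 0 counts. The part of this overlap in its level was not tested, and the next lowest gene was NDUFA10 (12.7). In complex III the range was 8.25-fold from UQCRH, the hinge protein, to UQCRHL, an intronless copy of it, and in complex IV it was 17.2-fold from COX6B1 to NDUFA4 (125.1). These are transcript levels per length in a table of 1 length per symbol, and whether reads shared between copies were split was not given in the sources used here. In the names table used, 38 of the 70 genes have at least 1 pseudogene and 20 overlap another listed gene.

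**Figure D1:**
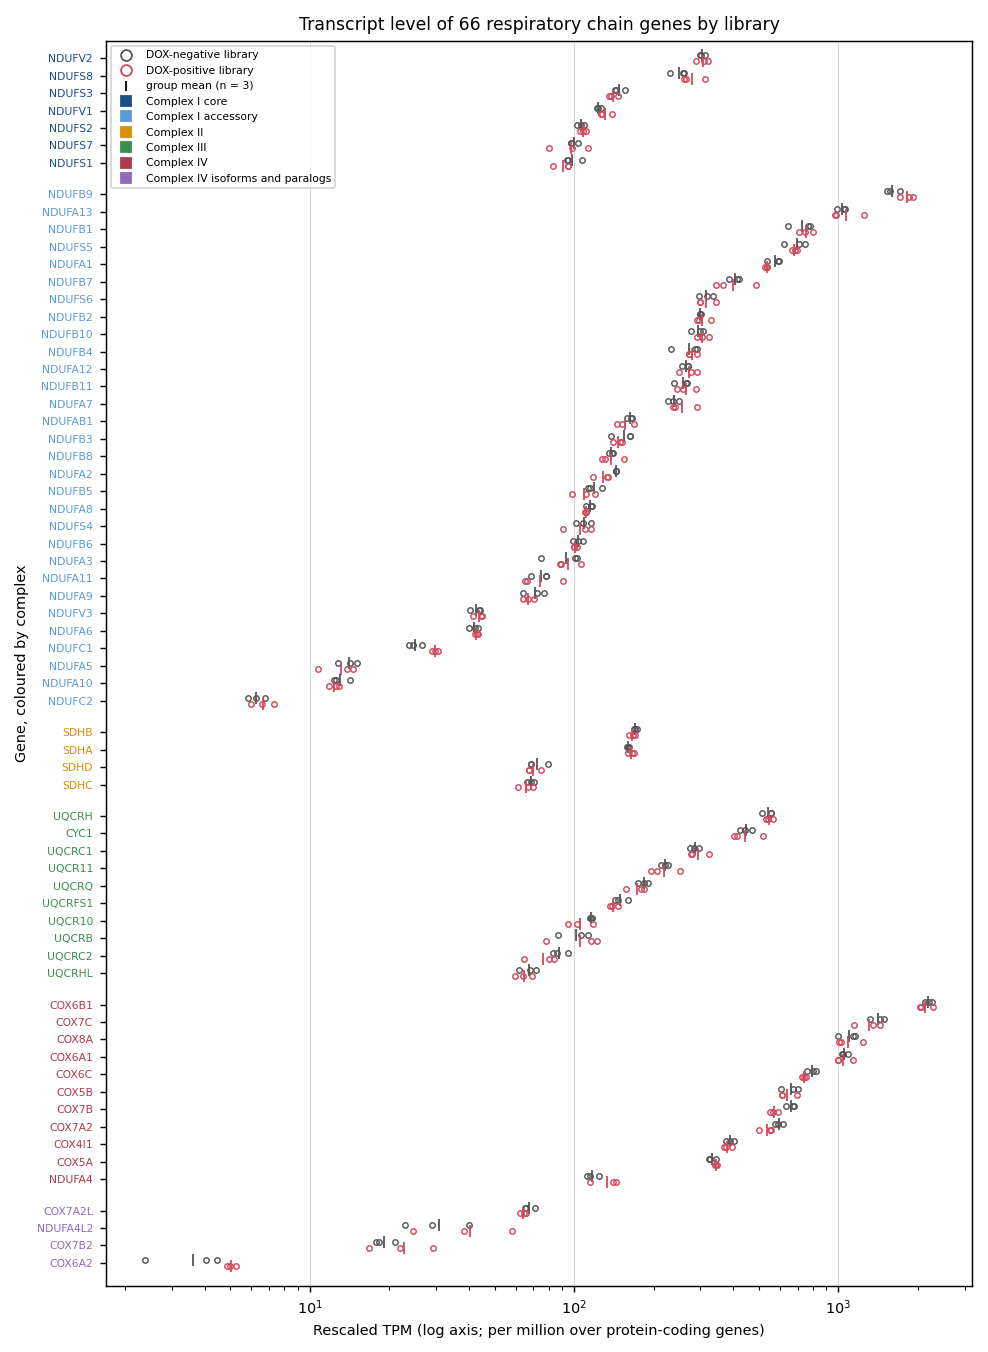
Each circle is 1 library (DOX-negative grey, DOX-positive red) and each tick a group mean (n = 3), with rescaled TPM on a log axis for the 66 tested genes, ordered by level within complex. COX6B1 is highest at 2155 and COX6A2 lowest at 4.32, and circles of both colours lie close together for nearly all genes outside the isoform group.

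In H660 cells, each isoform or paralog of complex IV had a lower transcript level than its ubiquitous partner. COX7A2L (65.75 rescaled TPM), NDUFA4L2 (35.53) and COX7B2 (20.85) still lay above NDUFC2 (6.45), the lowest of the 62 other genes. COX6A2 (4.32) lay below it. COX4I2, the lung-enriched partner of COX4I1, had 0 counts in all libraries, which allows at most 0.00795 CPM over their summed depth (3 counts, counting error only). COX6B2 had 31 counts, COX7A1 (muscle) 2 and COX8C 1 over the 6 libraries, and none of these 4 genes passed the filter for testing. COX6A2, the heart and skeletal muscle form, made up 0.34 ± 0.099% of the TPM of its pair with COX6A1 in DOX-negative and 0.48 ± 0.020% in DOX-positive libraries, so that COX6A1 exceeded it 240-fold on average (239.9). COX7B2 was 2.80 ± 0.21% and 3.84 ± 1.12% of its pair with COX7B, and COX7A2L, a factor that links complexes III and IV into supercomplexes, was 10.2 ± 0.79% and 10.7 ± 0.33% relative to COX7A2. NDUFA4L2, a hypoxia-inducible paralog of NDUFA4, was the most abundant relative to its partner, at 20.7 ± 5.46% and 23.2 ± 9.68%.

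The promoters of these genes were read from RefSeq (GRCh38.p14) to show what they share that the choice of symbols did not use. Promoters of 300 bases, from 250 before to 50 after the start, were found for 58 of the 70 genes. Both strands were searched for GCGCATGC (bound by NRF1, a regulator of nuclear genes for mitochondrial proteins), CCGGAAGT (GABPA and other ETS factors), ATGGCGGC (YY1) and AAGGTCA (ESRRA). GCGCATGC was present in 15.5% of these promoters and 4.26% of 15843 protein-coding promoters, CCGGAAGT in 13.8% and 6.19%, ATGGCGGC in 20.7% and 4.49%, and AAGGTCA in 12.1% and 3.13%. At least 1 of the 4 was in 24 of the 58 (41.4%) against 16.5% of all protein-coding promoters, and in 0 of the 6 isoform promoters found. ATGGCGGC lay within the 250 bases before the start only in NDUFA7 and NDUFS8. In the other promoters of the 58 that held it, the match reached into the 50 bases after the start. The 250 bases before the start are shown for the pair of complex IV forms that differ most in level among tested pairs, and for SDHD, the membrane anchor of complex II, whose window holds letters for NRF1 and GABPA. Capitals mark matches on either strand, which overlap each other in SDHD, and a match is not evidence of binding.
COX6A1, chr12:120437863-120438112, plus strand: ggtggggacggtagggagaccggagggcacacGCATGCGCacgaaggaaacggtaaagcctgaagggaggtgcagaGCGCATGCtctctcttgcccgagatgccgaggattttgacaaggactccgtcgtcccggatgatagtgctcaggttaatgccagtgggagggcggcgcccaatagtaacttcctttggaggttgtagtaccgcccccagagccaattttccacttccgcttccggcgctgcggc
COX6A2, chr16:31428361-31428610, minus strand: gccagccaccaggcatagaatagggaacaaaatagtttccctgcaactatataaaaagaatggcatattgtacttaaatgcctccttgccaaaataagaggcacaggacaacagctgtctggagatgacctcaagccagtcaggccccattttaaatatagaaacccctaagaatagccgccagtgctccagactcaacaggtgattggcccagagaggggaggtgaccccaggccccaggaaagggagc
SDHD, chr11:112086623-112086872, plus strand: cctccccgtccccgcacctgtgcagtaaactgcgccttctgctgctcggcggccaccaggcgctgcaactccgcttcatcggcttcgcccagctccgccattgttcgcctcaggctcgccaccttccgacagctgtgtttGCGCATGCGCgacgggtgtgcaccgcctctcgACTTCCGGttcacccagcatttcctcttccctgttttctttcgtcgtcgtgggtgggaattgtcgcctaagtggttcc
The COX6A1 window has separate NRF1 letters on each strand, and the COX6A2 window has none of the 4 motifs.

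Next, the DOX-positive and DOX-negative libraries were compared gene by gene. Of the 66 genes tested, 0 were called by edgeR in either direction, against 4.87% of all tested genes and 4.64% of those that averaged 1000 counts or more, the range in which most of these genes lie. An unadjusted p under 0.05 was found for 4 of them, compared with 21.1% of all tested genes, and DESeq2 and limma-voom also called 0. Groups did not overlap in normalized CPM for 6 genes (COX7B, NDUFC1, UQCRC2, NDUFS1, NDUFA2 and COX6A2), against 28.1% of all tested genes. The median log2 fold change was -0.017 over the 66 genes (26 positive, 40 negative) and 0.00034 over all tested genes.

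The estimates were also narrow in this edgeR fit. For all 62 genes outside the isoform group, the 95% confidence interval of the change lay within 1.5-fold in both directions, and for 49 it lay within 1.25-fold. The share of intervals within 1.5-fold was 71.9% over all tested genes and 94.8% over those that averaged 1000 counts or more. Point estimates ran from -0.22 to 0.25, and the most extreme interval bounds were -0.40 and 0.46. The median absolute change was 0.048 for these 62 genes, 0.13 for all tested genes and 0.094 for those that averaged 1000 counts or more. Of all tested genes, 27.0% had a change larger than the largest of the 62. For 45 of the 62, the difference between groups was smaller than the SD within groups. For 13 of the 62, the interval reached past 1.25-fold, so that a change of that size was not resolved. Widths depended on the fit. On log2 TPM as deposited, 48 to 51 of the 62 intervals lay within 1.5-fold and 0 or 1 within 1.25-fold. With a replicate block, 61 lay within 1.5-fold, with outermost bounds of -0.63 and 0.68. Without 1 library, all 62 lay within 1.5-fold and 35 to 50 within 1.25-fold.

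**Figure D2:**
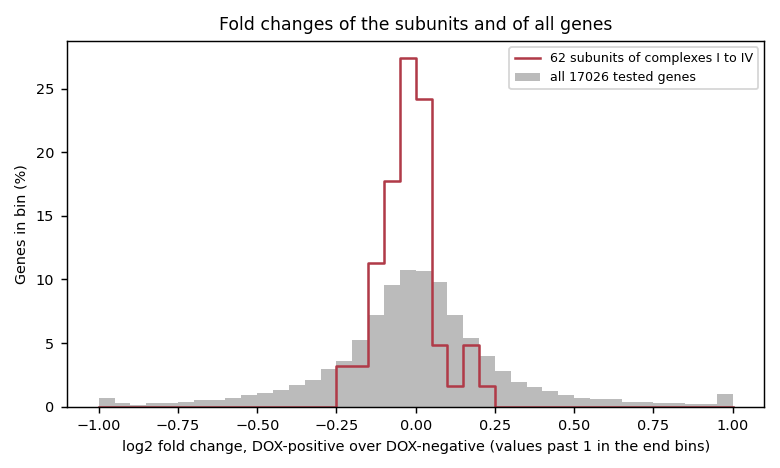
Share of genes (%) per bin of 0.05 in log2 fold change, DOX-positive over DOX-negative, for all 17026 tested genes (grey) and for the 62 genes of complexes I to IV outside the isoform group (red line), with values past 1 in the end bins. The red line stays between -0.22 and 0.25, while 27.0% of all tested genes lie further from 0 than 0.25 (0.247 before rounding).

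In complex I, none of the 37 genes was called (unadjusted p under 0.05 for 2, DESeq2 and limma-voom 0). Over all tested genes, 4.87% were called by edgeR and 21.1% had an unadjusted p under 0.05. At 4.87%, a set of this size would be expected to hold few called genes or none. The complex as a whole was 0.953 ± 0.035% of protein-coding TPM in DOX-negative and 0.978 ± 0.041% in DOX-positive libraries. The 7 core subunits had a median log2 fold change of -0.00072. NDUFS8, an iron-sulfur subunit near the coenzyme Q site, was at 59.8, 59.3 and 50.7 CPM without DOX and 58.2, 73.3 and 58.0 CPM with DOX. Its log2 fold change of 0.16 (SE 0.10, adjusted p = 0.42) rested on DOX-positive 2, the only library above 60 CPM, and was 0.040 without it (0.040 to 0.21 when each library was left out in turn). NDUFV1, which binds NADH and the flavin, was between 65.7 and 66.5 CPM without DOX and at 66.9, 77.1 and 65.9 CPM with DOX, again with DOX-positive 2 highest (0.083, SE 0.079, adjusted p = 0.60, and 0.011 without that library, the lowest of a leave-one-out range up to 0.12). NDUFS1, the largest iron-sulfur subunit, was the core gene whose groups did not overlap, at 119.1, 121.1 and 130.5 CPM against 118.3, 108.7 and 115.1 CPM. The groups were separated by less than 1 CPM, and its change was -0.12 (SE 0.073, adjusted p = 0.39). NDUFS3 changed by -0.080 (SE 0.081, adjusted p = 0.62), and NDUFV2 was level at 83.5 ± 3.27 and 83.4 ± 2.85 CPM (SD, n = 3).

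The 30 accessory subunits had a median log2 fold change of -0.011, with 14 positive and 16 negative. NDUFC1, a small membrane-arm subunit, had the highest value of the 62 genes. It was at 11.7, 12.6 and 10.8 CPM in DOX-negative and 13.5, 14.8 and 13.4 CPM in DOX-positive libraries, so that each DOX-positive library exceeded each DOX-negative one. The log2 fold change was 0.25 (SE 0.096, 95% interval 0.039 to 0.46), but the adjusted p was 0.16, and NDUFC1 overlaps NAA15. NDUFB9, the most abundant accessory transcript, was at 337.8, 301.1 and 296.2 CPM against 329.1, 386.9 and 347.7 CPM. DOX-negative 1 lay above DOX-positive 1, and the change was 0.19 (SE 0.084, adjusted p = 0.23), with a leave-one-out range from 0.12 (without DOX-positive 2) to 0.25 (without DOX-negative 1). In the other direction NDUFA2, a matrix-arm subunit, was at 37.7, 38.1 and 36.2 CPM against 34.4, 36.2 and 29.4 CPM. Its groups touched at 36.2 CPM, where they differed only past the printed digits, and the change was -0.16 (SE 0.091, adjusted p = 0.33), from -0.22 without DOX-positive 2 to -0.082 without DOX-positive 3. NDUFB5, of the membrane arm, changed by -0.12 (SE 0.082, adjusted p = 0.44). NDUFC2, the least abundant, was at 5.33 ± 0.28 and 5.61 ± 0.51 CPM, a change of 0.075 (SE 0.12, adjusted p = 0.77).

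**Figure D3:**
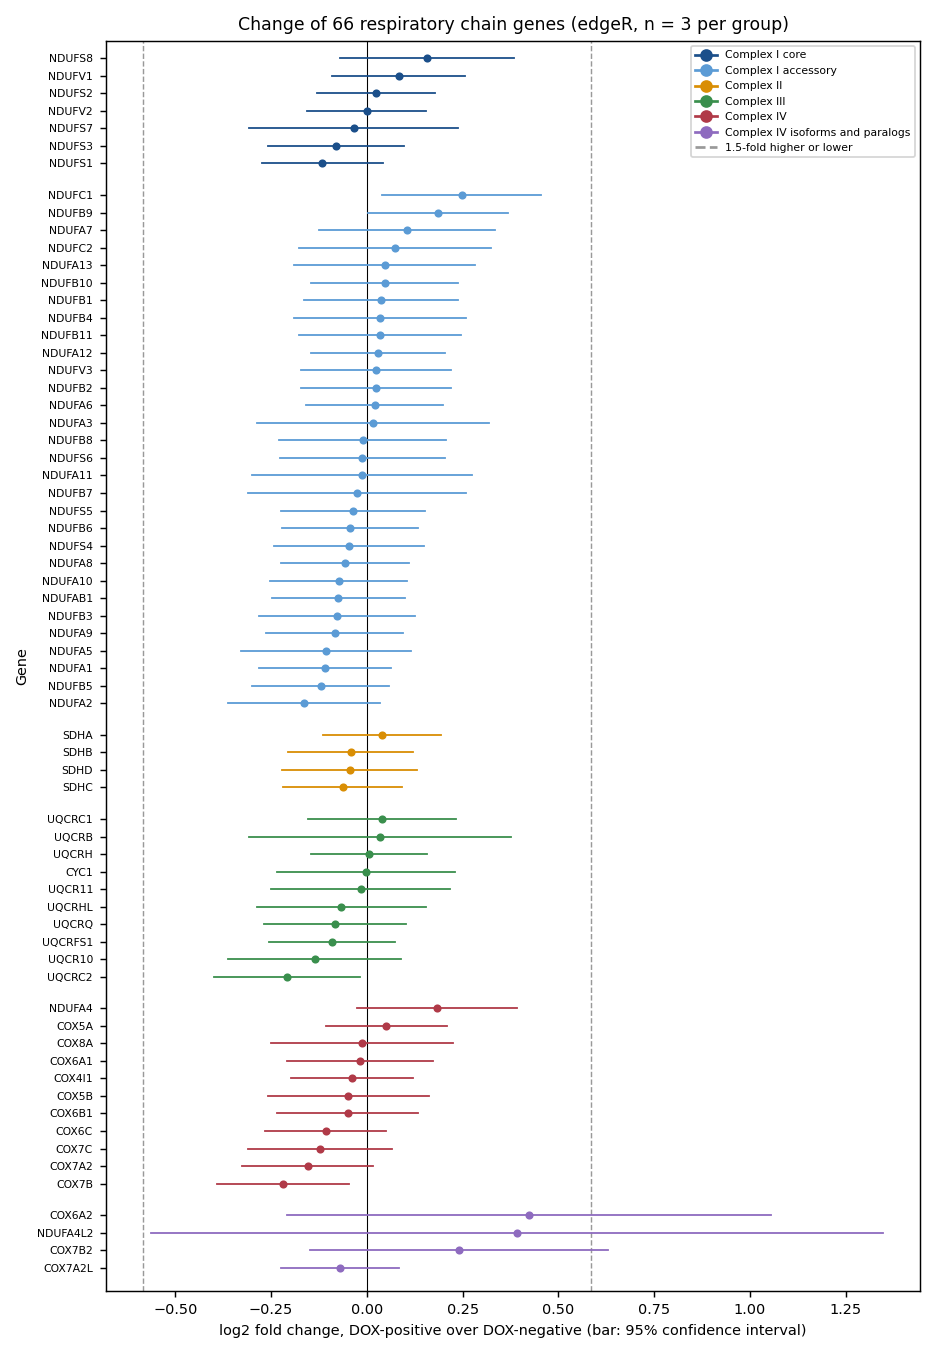
Log2 fold change (DOX-positive over DOX-negative) of the 66 tested genes with 95% confidence intervals from edgeR (n = 3 per group), grouped by complex, and dashed lines at a 1.5-fold change. All intervals outside the isoform group stay inside the dashed lines, from -0.40 to 0.46, while those of COX6A2, NDUFA4L2 and COX7B2 cross them.

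Complex II, which also acts in the citric acid cycle as succinate dehydrogenase, showed the least spread, with a within-group SD of its median deviation of 0.017 (log2) against 0.051 to 0.094 for the other complexes. Its 4 genes summed to 320.7 ± 3.46 CPM without DOX and 319.2 ± 9.41 CPM with DOX. SDHA, the flavoprotein that oxidizes succinate, was at 155.9, 155.4 and 152.1 CPM against 153.0, 169.4 and 153.8 CPM, and only DOX-positive 2 stood out (log2 fold change 0.039, SE 0.071, and -0.0071 without it). SDHB, the iron-sulfur subunit, changed by -0.042 (SE 0.075), and the membrane anchors SDHC and SDHD by -0.063 (SE 0.071) and -0.045 (SE 0.081). The lowest adjusted p of the 4 was 0.67, their groups overlapped in each case, and all 4 intervals lay within 1.25-fold. None was called or had an unadjusted p under 0.05, against 4.87% and 21.1% of all tested genes.

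Complex III had 7 negative and 3 positive values among 10 genes, with a median of -0.041. None was called and 1 had an unadjusted p under 0.05, against 4.87% and 21.1% of all tested genes (DESeq2 and limma-voom 0). UQCRC2, a core protein of the matrix side, was lowest. It was at 65.3, 63.4 and 69.2 CPM without DOX and 62.4, 50.4 and 58.4 CPM with DOX. The groups did not overlap, though DOX-negative 2 and DOX-positive 1 were within about 1 CPM, and the change was -0.21 (SE 0.088, 95% interval -0.40 to -0.017, adjusted p = 0.20), from -0.28 without DOX-positive 1 to -0.12 without DOX-positive 2. Its partner UQCRC1 went the other way, at 152.1, 148.1 and 153.2 CPM against 144.8, 178.2 and 143.1 CPM (0.040, SE 0.089, adjusted p = 0.84), with only DOX-positive 2 above the DOX-negative libraries and a change of -0.067 without it (leave-one-out range up to 0.095). UQCR10, a small subunit, changed by -0.14 (SE 0.10, adjusted p = 0.49) with all libraries, -0.26 without DOX-positive 2 and -0.046 without DOX-positive 3. UQCRB, which contacts the coenzyme Q site, was the most variable of the complex, at 200.6, 215.8 and 157.6 CPM and 215.8, 151.8 and 219.9 CPM. The low libraries were DOX-negative 3 and DOX-positive 2, and the change was 0.034 (SE 0.15, adjusted p = 0.93), from -0.093 without DOX-negative 3 to 0.19 without DOX-positive 2. UQCRH was steady at 115.8 ± 3.92 and 116.3 ± 3.87 CPM (SD, n = 3).

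In complex IV, 9 of 11 genes had a negative value, with a median of -0.049. None was called and 1 had an unadjusted p under 0.05, against 4.87% and 21.1% of all tested genes (DESeq2 and limma-voom 0). The complex made up 0.948%, 0.954% and 0.888% of protein-coding TPM in the DOX-negative libraries and 0.869%, 0.922% and 0.880% in the DOX-positive libraries. DOX-negative 3 lay within the DOX-positive range, and the means of 0.930 ± 0.037% and 0.890 ± 0.028% differed by little more than 1 SD. COX7B, a subunit needed for assembly of the enzyme, had the lowest adjusted p of the 66 genes. It was at 65.6, 66.5 and 59.5 CPM against 56.8, 56.7 and 51.2 CPM, with no overlap. The log2 fold change was -0.22 (SE 0.079, 95% interval -0.39 to -0.047, adjusted p = 0.14). COX7A2 was at 130.1, 124.2 and 115.8 CPM against 103.4, 119.1 and 110.1 CPM, where DOX-positive 2 lay above DOX-negative 3 (-0.15, SE 0.079, adjusted p = 0.29). NDUFA4, listed as COXFA4 in RefSeq, had the highest value of the complex, 0.18 (SE 0.096, adjusted p = 0.30, with 0.11 without DOX-positive 2 and 0.28 without DOX-positive 1), at 87.4, 78.6 and 77.6 CPM against 79.1, 101.1 and 96.5 CPM. COX5A, a matrix-side subunit, changed by 0.051 (SE 0.072, adjusted p = 0.74), and COX6B1, the most abundant, by -0.050 (SE 0.085, adjusted p = 0.79). The ubiquitous forms COX4I1, COX6A1 and COX8A changed by -0.038, -0.017 and -0.013, with adjusted p values from 0.82 to 0.96.

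Among the 4 tested isoforms and paralogs, NDUFA4L2, COX6A2 and COX7B2 had an SE above that of each of the 62 other genes, while that of COX7A2L (0.071) was below their median of 0.088. None was called or had an unadjusted p under 0.05, compared with 4.87% and 21.1% of all tested genes (DESeq2 and limma-voom 0). NDUFA4L2 was at 8.58, 15.1 and 10.5 CPM without DOX and 21.4, 14.6 and 8.76 CPM with DOX, so that the highest and the second lowest library were both DOX-positive. Its log2 fold change of 0.39 had a 95% interval from -0.56 to 1.35 (SE 0.38, adjusted p = 0.63), which includes a 2-fold rise. It was 0.034 without DOX-positive 1, the highest library, and 0.67 without DOX-positive 3, and NDUFA4L2 overlaps SHMT2. COX6A2 was at 0.41, 0.37 and 0.21 CPM against 0.44, 0.49 and 0.43 CPM, a mean of only 25.2 counts per library. The groups did not overlap, and the change was 0.42 (SE 0.29, 95% interval -0.21 to 1.06, adjusted p = 0.44), or 0.21 without DOX-negative 3, its lowest library. COX7B2 was at 2.33, 2.76 and 2.29 CPM against 2.81, 2.24 and 3.65 CPM (0.24, SE 0.18, adjusted p = 0.49), where DOX-positive 2 was the lowest of all libraries, and the change was 0.39 without it and 0.040 without DOX-positive 3, the highest. COX7A2L changed by -0.071 (SE 0.071, adjusted p = 0.62), and UQCRHL, which was 11.1 ± 0.39% of its pair with UQCRH without DOX and 10.6 ± 0.86% with DOX, by -0.066 (SE 0.10, adjusted p = 0.76).

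Part of the variation among libraries was shared between genes and did not follow the groups. The mean deviation of the 66 genes from their own 6-library mean was 0.037, 0.032 and -0.049 (log2) in DOX-negative 1 to 3 and -0.027, 0.071 and -0.063 in DOX-positive 1 to 3. Genes differed more than this within each library. The SD of the deviation across the 62 genes outside the isoform group ran from 0.057 (DOX-negative 1) to 0.15 (DOX-positive 2). DOX-positive 2 was the highest library for 32 of the 62 genes outside the isoform group and the lowest for 9. DOX-positive 3 was the lowest for 23 and DOX-negative 3 for 22. The SD was larger among DOX-positive libraries for 40 of the 62 genes and among DOX-negative libraries for 22.

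**Figure D4:**
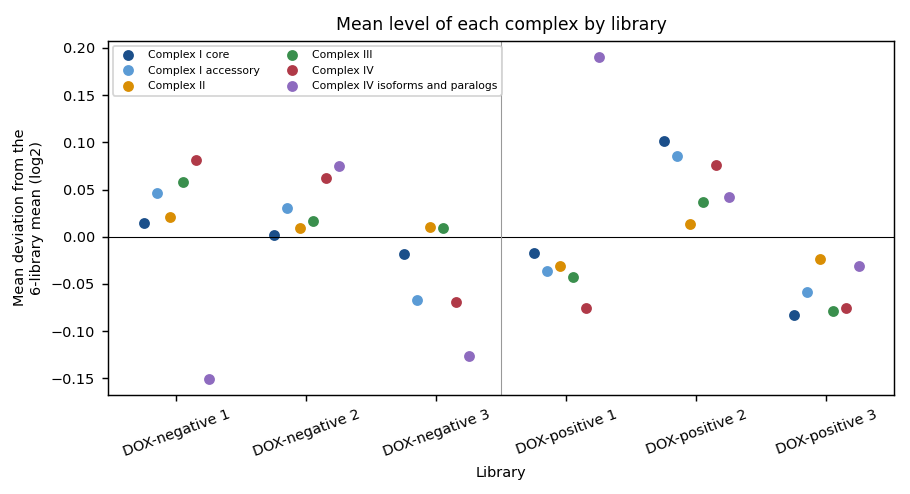
Mean log2 deviation of the genes of each complex from their 6-library mean, by library, with 1 point per complex. Points for complexes I to IV lie above 0 in DOX-positive 2 and below 0 in DOX-positive 1 and 3, and complex II deviates least.

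The excess in DOX-positive 2 moved with the GC content of the transcript. Across the 62 genes, the Spearman correlation of the deviation with GC content was 0.72 in DOX-positive 2, -0.57 in DOX-positive 3, -0.40 in DOX-positive 1 and between -0.24 and -0.011 in the DOX-negative libraries. These correlations are across genes that share a library and are not independent. Chosen after their values were seen, the GC-rich genes NDUFB7 (65.0% GC), CYC1 (64.5%) and NDUFA11 (62.7%) deviated by 0.33, 0.27 and 0.34 in DOX-positive 2. NDUFB7, for example, was at 65.7 CPM there and between 43.1 and 55.4 CPM in the other libraries. The GC-poor genes NDUFA5 (35.0%), UQCRB (38.3%) and COX7C (39.0%) deviated by -0.26, -0.33 and -0.19 in the same library. The part of GC content in single values was not tested. With offsets that removed trends in length and GC content from each library, the median SE of the 62 genes was 0.063 in place of 0.088, their median change was -0.048, 0 were called, and the lowest adjusted p was 0.058 (NDUFA2). Of all tested genes, 12.6% were called in that fit. Without DOX-positive 2, the number of the 66 genes with an unadjusted p under 0.05 rose from 4 to 12. Over all tested genes it was 4142 of 17258, against 3597 of 17026 with all libraries. In both fits this was a larger share than among the 66 genes. Without DOX-positive 2, the 62 genes had a median of -0.068, 0 called and a lowest adjusted p of 0.069 (UQCR10).

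**Figure D5:**
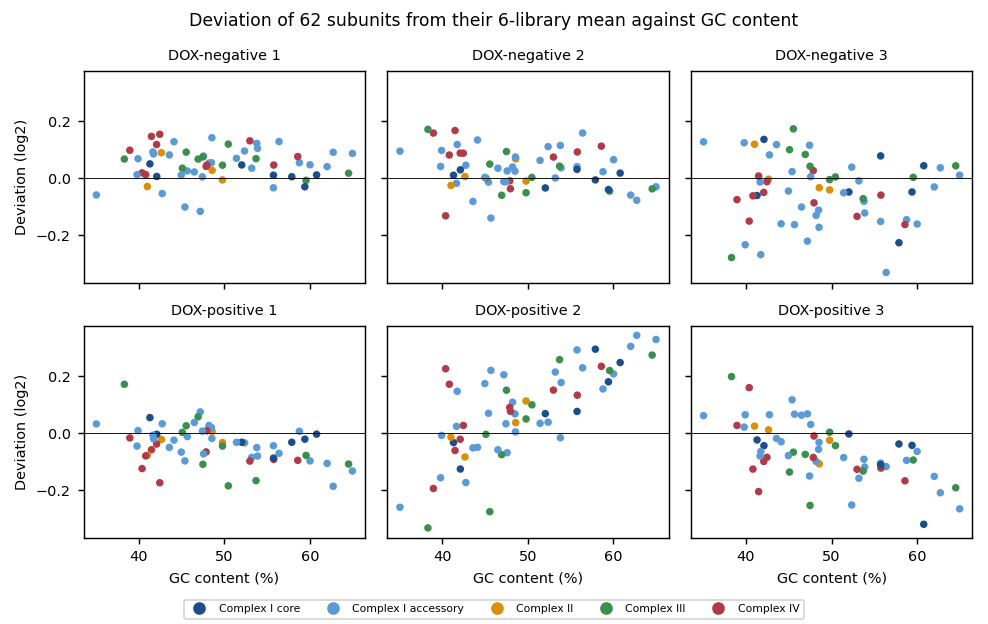
Log2 deviation of each of 62 genes from its 6-library mean against transcript GC content (%), in 1 panel per library, coloured by complex. The points climb with GC content in DOX-positive 2 (Spearman rho 0.72) and fall in DOX-positive 3 (-0.57).

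The genes around the respiratory chain were then counted in the same way, against the same 4.87% called and 21.1% with an unadjusted p under 0.05 of all tested genes. At 4.87%, lists of this size would be expected to hold few called genes or none. None was called by edgeR among 17 genes of ATP synthase, its inhibitor ATP5IF1 included (unadjusted p under 0.05 for 3). The same held for 18 assembly factors of complex I (2), 4 of complex II (0), 6 of complex III (1) and 26 of complex IV (1). Likewise none was called among 15 genes for coenzyme Q synthesis and cytochrome c (2), 8 other dehydrogenases that feed coenzyme Q (2) and 14 citric acid cycle enzymes (0). In these lists limma-voom called 0 genes and DESeq2 called 1, the ATP synthase β-subunit gene ATP5F1B (log2 fold change -0.23, adjusted p = 0.043, DESeq2), which is ATP5B in the files. With length and GC offsets, which called 12.6% of all tested genes, ATP5F1B (-0.23), ATP5PB (-0.17, ATP5F1 in the files) and CYCS (-0.23) were called lower. GPD2 (0.31), NDUFAF4 (0.29) and DLD (0.24) were called higher in that fit. In the edgeR fit without offsets, median changes were -0.068 for ATP synthase, 0.17 for the other dehydrogenases and between -0.041 and 0.054 for the rest. The 13 genes of mitochondrial DNA were not analysed here, so that the subunits of complexes I, III and IV that mitochondrial DNA encodes are outside these results.

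Among 16 regulators of mitochondrial gene expression, 2 were called, with an unadjusted p under 0.05 for 6, against 4.87% and 21.1% of all tested genes. MYC, a transcription factor with many targets in metabolism, was higher with DOX, at 20.3 ± 2.49 CPM without and 33.5 ± 4.58 CPM with DOX (SD, n = 3), which is 0.72 higher on the log2 scale (SE 0.12, adjusted p = 0.0091). PPARGC1B, a coactivator that works with ESRRA and NRF1 on genes of oxidative metabolism, was at 20.7 ± 1.29 CPM without and 14.9 ± 2.56 CPM with DOX. The lowest DOX-negative library (19.2 CPM) was above the highest DOX-positive one (16.7 CPM), and PPARGC1B fell by 0.47 on the log2 scale (SE 0.12, adjusted p = 0.046). The PPARGC1B call did not hold in 11 of the 20 other fits in which it was tested, including each fit without 1 DOX-negative library and those without DOX-positive 2 or 3. The MYC call was lost in 4 of 22, among them the fit without DOX-negative 3 (0.63, adjusted p = 0.080). In the edgeR fit with all libraries, PPARGC1A (0.38, adjusted p = 0.079), PPRC1 (0.23, adjusted p = 0.12) and ESRRA (0.24, adjusted p = 0.12) were higher with DOX. TFB2M (-0.25, adjusted p = 0.13) and TFB1M (-0.17, adjusted p = 0.27) were lower in the same fit. The groups did not overlap for any of these genes, as for 28.1% of all tested genes, but none of them was called. With length and GC offsets, MYC, PPARGC1A and PPRC1 were called higher, and TFB2M (-0.25) and PPARGC1B (-0.46) lower. That fit called 12.6% of all tested genes. Of the 16 regulators, 6 had positive and 10 negative log2 fold changes.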

How the data were processed

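Per the labels, RNA of triplicate cultures was isolated with a column kit and sequenced from stranded mRNA libraries. Even so, the 6 structured RNAs, which are not mRNA, held between 11.3% and 17.2% of counts, with the highest share in DOX-positive 2. How they entered the libraries was not tested. Raw counts for 28008 symbols and TPM for 25673 symbols, which divide counts by gene length, were deposited by the authors. The submitters' processing notes name STAR, DESeq2 and GRCh38. Versions, the annotation, the strand setting and the treatment of shared reads were not given in the sources used here. Strand matters for the 20 genes that overlap another. Groups and replicate numbers came from the sample titles, and 0 library columns were unmatched.

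Counts were tested with edgeR 4.0.16 in R 4.3.3 (filterByExpr, TMM factors, glmQLFit with robust estimation, glmQLFTest, no covariate), comparing 3 DOX-positive with 3 DOX-negative libraries. P values were adjusted by Benjamini-Hochberg over 17026 genes, and a gene was called under 0.05. The code was tested on simulated data. Log2 fold changes are DOX-positive over DOX-negative, with SE and 95% intervals from the model. Depths of 47620696 counts or more gave at least 343.7 counts per library on average for the 62 genes outside the isoform group. Alternatives used DESeq2 1.42.0, limma 3.58.1 (voom, and trend on log2 TPM), other scalings and filters, a replicate block, and offsets for length (97.7% of tested genes) and GC content (93.0%). Length was taken from the ratio of counts to TPM. The symbols were matched to a RefSeq GRCh38.p14 names table for 95.0%, including older names.

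The genes, lists and motifs were chosen with earlier results of these data known. Named are the genes called, per complex or subgroup those with the 2 highest and 2 lowest changes among those averaging 50 counts or more, the most and least abundant, the isoform pairs, up to 3 called genes per further list, and MUC1.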

Additional observations from a re-analysis of the deposited data

How the results depend on the processing

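In all 22 other fits, 0 respiratory chain genes were called, in 16 with all libraries and 6 without 1 library, with 0 to 12 at an unadjusted p under 0.05. Across all tested genes, 329 to 4910 had an unadjusted p under 0.05 in these fits. The median log2 fold change of the respiratory chain genes ran from -0.067 to 0.0086. The number of genes called across the transcriptome, 829, was 1354 with DESeq2, 30 and 35 with limma on filtered log2(TPM + 1) and log2(TPM + 0.1), 0 on unfiltered log2(TPM + 1) (1248 at an unadjusted p under 0.05), 2148 with length and GC offsets, 382 on rescaled TPM (added after seeing the data) and 58 to 1035 without 1 library, lowest without DOX-negative 3 (58) and also reduced without DOX-negative 2 (127) or DOX-positive 3 (375); the cause was not tested. MUC1 missed the threshold only on unfiltered log2(TPM + 1) (-1.22). Genes called in the lists around the chain, 2, were 1 without scaling factors, with limma-voom, with robust estimation off, with length offsets and on rescaled TPM, 0 in the 3 fits of TPM as deposited, 11 with length and GC offsets, and 0 to 4 without 1 library. The median log2 fold change of IV isoforms and paralogs, 0.32, was 0.23 at a mean of at least 50 counts, 0.20 (0.195), 0.23 and 0.0088 on TPM, and 0.15 to 0.42 without 1 library. The median log2 fold change of II, -0.044, was -0.019, -0.020 and -0.019 on TPM and -0.069 with length offsets, and the median log2 fold change of III without 1 library lay between -0.12 (without DOX-positive 2) and -0.019.

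The named genes that changed sign had log2 fold changes between -0.045 and 0.040 with all libraries. UQCRH was -0.00021 with RLE factors, -0.0054 without scaling, -0.00033 at a mean of at least 50 counts, -0.019 with length offsets and -0.013 with GC offsets too. NDUFV2 was 0.0023 without a filter, 0.023, 0.023 and 0.023 on TPM, 0.010 with length and GC offsets and 0.0041 on rescaled TPM. COX6A1 was 0.0020, 0.0021 and 0.0020 on TPM and 0.021 with length and GC offsets, which gave -0.029 for UQCRC1, and COX8A was 0.0062, 0.0063 and 0.0062 on TPM. Without 1 library, values ran from -0.036 to 0.026 for NDUFV2, -0.14 to 0.065 for COX8A, -0.017 to 0.032 for UQCRH, -0.11 to 0.040 for COX6A1, -0.071 to 0.00094 for SDHD, -0.093 to 0.19 for UQCRB, -0.0071 to 0.066 for SDHA, -0.067 to 0.095 for UQCRC1 and -0.074 to 0.00025 for SDHB.

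Libraries of the same replicate number did not deviate together (correlations of -0.54, 0.019 and -0.10 over 14587 genes), so the numbers were not taken as pairs. A replicate block gave 998 called genes and 0 of the 66. With a replicate block and length offsets, 1094 genes were called, the complex II median was -0.069 and UQCRH was -0.019.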
